A study of Homo sapiens with 8 samples.

Results

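The genes of glucose use were examined in LP-1 cells, a human multiple myeloma line, as 37 listed genes for glucose transport, glycolysis, lactate handling, control of pyruvate dehydrogenase, glycogen and the pentose phosphate pathway. They were found by gene symbol among 63129 gene rows, and 35 of the 37 had an average over the 8 libraries of at least 1 RPKM, a read number scaled to gene length and library size, and were tested. Both compounds block bromodomains, the modules that bind acetylated lysine: SGC-CBP30 those of the histone acetyltransferases CBP and EP300, CPI203 those of the BET protein family. LP-1 cells received 2.5 µM SGC-CBP30, 0.25 µM CPI203 or the vehicle DMSO for 6 hr. The 8 libraries form 4 groups of 2, with a separate DMSO pair for each compound. All come from 1 cell line at 1 dose and 1 time per compound, and the doses of the compounds differ. The study calls the treated libraries biological replicates. The labels do not say whether they came from separate cultures, so the spread behind the p-values may be partly technical.

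In glycolysis glucose enters the cell through SLC2A transporters, is trapped by hexokinase and is split and oxidized to pyruvate, which is reduced to lactate or passed to the mitochondria by pyruvate dehydrogenase. Phosphofructokinase sets the pace of the upper steps, and the PFKFB enzymes make and degrade fructose 2,6-bisphosphate, its strongest activator. Glycogen is the stored form of glucose, and the pentose phosphate pathway diverts glucose 6-phosphate to make NADPH and ribose. Many genes of the pathway are classical targets of MYC and of the hypoxia-inducible factors, and myeloma cells, like other cancer cells, take up much glucose.

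The estimated depth was 26000000 to 50100000 reads per library, and it was highest in the SGC-CBP30 pair, at 46800000 and 50100000 reads. The SD of the log2 difference between replicates was 0.0909 to 0.115 in the 4 groups, over the 8298 genes averaging 10 RPKM or more. All 9 plasma cell markers were expressed, with a summed level of 860 to 1409 RPKM per library. With SGC-CBP30 7 of the 9 fell (limma, adjusted p under 0.05), against 14.8% of all genes tested. With CPI203 8 fell and 1 rose, against 33.1% and 31.1%. The markers include IRF4, which the study reports as suppressed by SGC-CBP30, and their part in the results was not tested. Of 14 markers of other cell types 3 (PECAM1, VWF and EPCAM) were not found with a value above 0. Here a symbol that is absent cannot be told from a measured 0. The only one with a mean of 1 RPKM or more was the globin HBB, at 0.773 to 3.55 RPKM and highest in the DMSO pair of CPI203. The T cell markers, all under 1 RPKM, separated the 2 experiments. CD3D was 0 in the SGC-CBP30 experiment and 0.375 to 0.499 RPKM in that of CPI203. CD2 was 0.0124 to 0.0663 and 0.236 to 0.568 RPKM, and CD3E was 0 to 0.0226 and 0.0805 to 0.180 RPKM. The source of this signal was not tested. The summed level of those 14 was 1.05 to 4.56 RPKM per library. In bulk samples fewer cells of a type and less RNA per cell cannot be told apart.

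The 250 bases before the annotated start are shown for 5 members that rose at least 1.5-fold with SGC-CBP30 and have 1 annotated start in the RefSeq table, and for the outermost start of HK2, which moved in opposite directions with the compounds. Sequences are from RefSeq (GRCh38.p14), run 5′ to 3′ in the sense of the gene and end at the base before its start. Capitals mark ACGTG or its reverse complement CACGT, a form of the core of the hypoxia response element. Where both overlap they form CACGTG, the E-box read by MYC and by MLX partners.
PFKFB4 (chr3:48556804-48557053, minus strand): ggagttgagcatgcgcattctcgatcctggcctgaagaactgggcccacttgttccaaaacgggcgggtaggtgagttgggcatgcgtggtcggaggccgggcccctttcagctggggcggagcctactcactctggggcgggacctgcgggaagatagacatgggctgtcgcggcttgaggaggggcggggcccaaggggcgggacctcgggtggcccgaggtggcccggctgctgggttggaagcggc
SLC2A1 (chr1:42958869-42959118, minus strand): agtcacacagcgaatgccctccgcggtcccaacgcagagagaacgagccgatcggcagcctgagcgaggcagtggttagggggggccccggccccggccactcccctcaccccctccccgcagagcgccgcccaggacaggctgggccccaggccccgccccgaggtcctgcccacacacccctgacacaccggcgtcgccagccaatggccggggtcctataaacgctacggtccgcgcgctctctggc
ALDOC (chr17:28576896-28577145, minus strand): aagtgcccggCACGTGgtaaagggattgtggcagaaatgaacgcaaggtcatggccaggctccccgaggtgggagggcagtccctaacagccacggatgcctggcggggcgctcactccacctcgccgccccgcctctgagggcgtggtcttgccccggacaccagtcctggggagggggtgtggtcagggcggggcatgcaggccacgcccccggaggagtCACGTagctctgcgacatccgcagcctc
ENO2 (chr12:6914330-6914579, plus strand): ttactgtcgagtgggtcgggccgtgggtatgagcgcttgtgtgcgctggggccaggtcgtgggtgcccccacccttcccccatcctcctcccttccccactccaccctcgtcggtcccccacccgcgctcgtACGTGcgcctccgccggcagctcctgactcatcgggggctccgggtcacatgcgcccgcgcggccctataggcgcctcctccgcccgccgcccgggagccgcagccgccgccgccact
GBE1 (chr3:81761646-81761895, minus strand): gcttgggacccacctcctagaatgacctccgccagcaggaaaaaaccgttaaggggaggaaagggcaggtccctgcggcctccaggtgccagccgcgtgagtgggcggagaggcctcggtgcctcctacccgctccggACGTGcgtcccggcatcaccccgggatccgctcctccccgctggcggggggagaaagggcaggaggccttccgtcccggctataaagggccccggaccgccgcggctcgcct
HK2 (chr2:74833877-74834126, plus strand): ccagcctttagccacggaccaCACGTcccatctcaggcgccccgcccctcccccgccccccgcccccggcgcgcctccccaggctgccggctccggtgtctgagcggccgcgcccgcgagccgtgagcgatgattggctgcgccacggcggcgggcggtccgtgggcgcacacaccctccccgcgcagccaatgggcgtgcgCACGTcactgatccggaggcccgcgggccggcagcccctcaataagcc
The windows of PFKFB4 and SLC2A1 held no match, those of ENO2 and GBE1 held 1 each, the HK2 window shown held 2, and the ALDOC window held an E-box near its far end and 1 further match. The other annotated HK2 start, not shown, had 4 matches that form 2 E-boxes. Over all 34 members with an entry, 23 of 64 windows held ACGTG on either strand, a share of 35.9%, against 18.5% of 35116 windows of all genes. By gene this was 20 of 34 members and 21.7% of 27305 genes, but the members had more windows per gene, which raises their share by gene. CACGTG stood in 8 of 64 member windows, or 12.5%, and in 6.34% of all windows. The windows of all genes were not limited to genes expressed here and not matched for base composition. The higher shares of the members are therefore not read as particular to them. For the 7 members that rose at least 1.5-fold with SGC-CBP30, 4 of 14 windows held ACGTG (28.6%) and 2 held CACGTG (14.3%). By gene this was 4 of 7 (57.1%) and 2 of 7 (28.6%). Many of the 14 windows belong to HK1 alone, and none of its windows held a match, which lowers the share by window. A match is a description of letters, and no match says only that these letters are not in this window. SLC2A3, PFKFB2 and SLC16A1 had no entry.

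The members ranged widely in level. Of the 37, 14 had a mean of at least 100 RPKM, 12 lay between 10 and 100, and 9 between 1 and 10. Their summed level was 5386 to 6115 RPKM per library, or 1.11% to 1.26% of all RPKM. That share was 1.15% and 1.16% in the DMSO libraries of SGC-CBP30 against 1.26% and 1.25% with the compound, and 1.11% in both DMSO libraries of CPI203 against 1.11% and 1.12% with CPI203. Aldolase ALDOA ranked first with 867 to 1117 RPKM, followed by the enolase ENO1 with 686 to 828, GAPDH with 599 to 693 and the lactate dehydrogenase LDHA with 518 to 630. The glucose transporter SLC2A3 (0 to 0.202 RPKM) and the lactate exporter SLC16A3 (0.0453 to 0.206 RPKM) were under 1 RPKM and were not tested.

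With SGC-CBP30 16 of 35 members rose and 8 fell at an adjusted p under 0.05 (limma on log2(RPKM + 0.1), Benjamini-Hochberg over all genes tested). Of all 14732 genes tested 25.6% rose and 14.8% fell by the same rule. At 1.5-fold or more 7 members rose (SLC2A1, HK1, ALDOC, PFKFB3, PFKFB4, ENO2 and GBE1) and 2 fell (PYGB and PYGL), against 3.47% and 3.79% of all genes. The median log2 change was 0.09 over the members and 0.07 over all genes tested. The study shows LDHA, PGK1, SLC2A1 and PFKFB4 as targets of the transcription factor IRF4. It took IRF4 targets from a published catalogue (Shaffer et al.), but those shown were chosen on these samples, so their rise is not independent evidence. The rule given for its list of such targets is at least 1.5-fold at p under 0.05 with SGC-CBP30 but not with CPI203. By the ratio of mean RPKM with SGC-CBP30 to its DMSO pair, SLC2A1 (2.11) and PFKFB4 (3.32) exceeded 1.5-fold here. LDHA (1.19) and PGK1 (1.33) stayed under 1.5-fold by this ratio, below the minimum in that rule. With the libraries scaled to equal medians 43.9% of all calls with SGC-CBP30 were increases, against 63.4% without, and the members then gave 14 increases and 9 decreases. Among calls of at least 1.5-fold the increases were 32.5% with that scaling and 47.8% without.

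With CPI203 the members split evenly, and the hexokinases HK1 and HK2 changed most among them, in opposite directions. Of 35 members 11 rose and 11 fell, against 31.1% and 33.1% of all genes tested. At 1.5-fold or more 3 rose (HK1, ENO2 and GBE1) and 4 fell (HK2, PFKP, PDK1 and PDK2), while 13.4% and 14.4% of all genes did so. The median log2 change was -0.04 over the members and -0.01 over all genes. A total of 6 members rose with both compounds and 5 fell with both, while 4 (HK2, PDK1, PGAM1 and SLC16A1) rose with SGC-CBP30 and fell with CPI203 and TALDO1 did the reverse. The same combinations were not counted over all genes, so these counts are not read as particular to the members. The log2 changes with the 2 compounds differed for 27 of 35 members, against 50.3% of all genes, and by at least 1.5-fold for 9, against 24.5%. Among the small changes, leaving out 1 library ended the SGC-CBP30 calls of LDHB and PDHB (any of the 4 libraries), PKM (any but the second DMSO library), PFKP (the second library of either group) and GPI (the second SGC-CBP30 library). The same ended the CPI203 calls of PGAM1 and SLC16A1 (any of the 4 libraries) and TALDO1 (any but the first DMSO library).

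**Figure D1:**
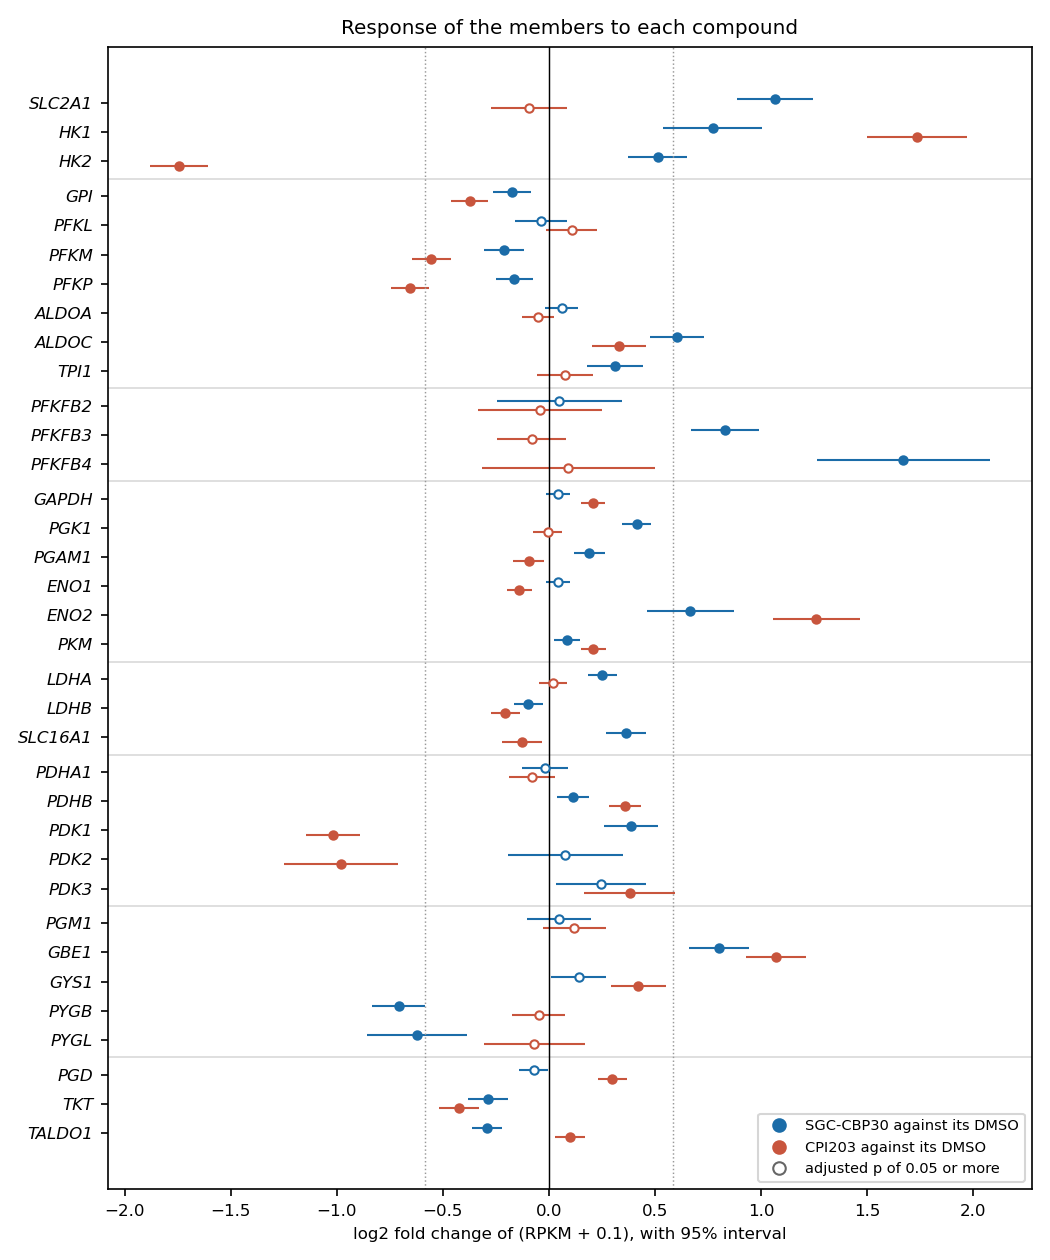
Log2 fold change of (RPKM + 0.1) with its 95% interval for the 35 members tested, for SGC-CBP30 and CPI203 against their own DMSO pairs, grouped by role from glucose entry at the top to the pentose phosphate pathway at the bottom. Open points did not pass an adjusted p of 0.05 and dotted lines mark 1.5-fold. PFKFB4 (1.67) lies farthest right for SGC-CBP30, and HK1 (1.74) and HK2 (-1.74) lie farthest out for CPI203.

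Glucose entry. SLC2A1, the basal glucose transporter also known as GLUT1 (hg19, chromosome 1, 43391051 to 43424530), measured 8.01 and 8.44 RPKM with DMSO and 18.5 and 16.2 RPKM with SGC-CBP30. In the other experiment it measured 6.74 and 6.90 RPKM with DMSO and 6.41 and 6.37 RPKM with CPI203. Only the SGC-CBP30 libraries stood high, and they did not overlap with any of the other 6. Over all 14732 genes tested, a treated pair and its own DMSO pair did not overlap for 73.1% with SGC-CBP30 and 80.8% with CPI203. Among the members the shares were 85.7% and 74.3%. Separation of libraries, here and below, is therefore given as a description only. The log2 change with SGC-CBP30 was 1.07 (SE 0.08, adjusted p = 1.54e-05, limma). With CPI203 it was -0.09 (95% interval -0.27 to 0.09, adjusted p = 0.332), and the responses differed by 1.16 (SE 0.11, adjusted p = 2.78e-05).

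Hexokinase commits glucose to the cell, and its isoenzymes HK1 and HK2 moved differently. HK2 (hg19, chromosome 2, 75061107 to 75120486), the inducible form, measured 17.4 and 17.0 RPKM with DMSO and 25.1 and 24.1 RPKM with SGC-CBP30, then 19.0 and 19.3 RPKM with DMSO and 5.41 and 5.9 RPKM with CPI203. HK1 (chromosome 10, 71029739 to 71161638), the constitutive form, measured 2.24 and 2.21 RPKM with DMSO and 3.72 and 4.03 RPKM with SGC-CBP30, then 2.40 and 2.58 RPKM with DMSO and 8.87 and 8.19 RPKM with CPI203. HK1 was thus higher than its DMSO libraries with either compound, while HK2 was higher with SGC-CBP30 and lower with CPI203. There was no overlap in any case, as for most genes tested. The log2 changes of HK1 were 0.77 (SE 0.10, adjusted p = 0.000490) with SGC-CBP30 and 1.74 (SE 0.10, adjusted p = 5.19e-07) with CPI203. Those of HK2 were 0.51 (SE 0.06, adjusted p = 0.000252) and -1.74 (SE 0.06, adjusted p = 2.37e-08). HK1 made up 11.2% to 14.4% of the summed RPKM of both genes in the 6 libraries without CPI203, and 62.1% and 58.1% with it. The sum itself was 21.4 and 21.9 RPKM with DMSO and 14.3 and 14.1 RPKM with CPI203, and it went from 19.6 and 19.2 to 28.8 and 28.1 RPKM with SGC-CBP30.

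**Figure D2:**
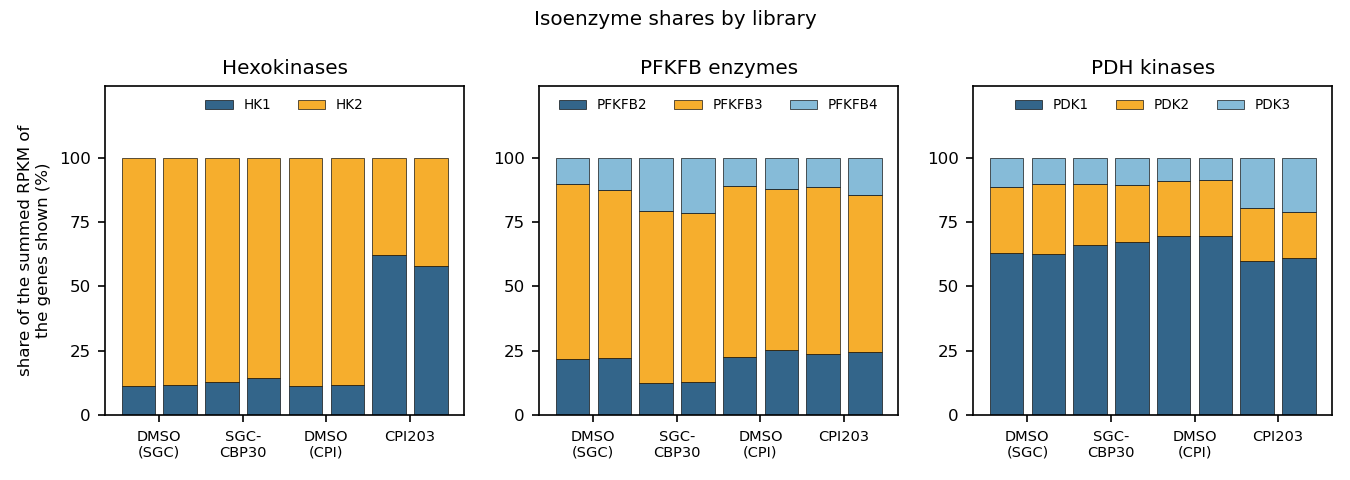
Share in percent of the summed RPKM of the genes shown, as stacked bars for the 8 libraries (2 bars per group), for the hexokinases, the PFKFB enzymes and the pyruvate dehydrogenase (PDH) kinases. HK1 takes 62.1% and 58.1% of the hexokinase sum with CPI203, and PFKFB4 takes 20.8% and 21.3% of the PFKFB sum with SGC-CBP30.

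Control of phosphofructokinase. PFKFB4 (hg19, chromosome 3, 48555116 to 48599448), an enzyme that can both make and degrade the activator, was the least abundant member tested and had the greatest rise of the 35 with SGC-CBP30. It measured 1.24 and 1.58 RPKM with DMSO and 4.46 and 4.90 RPKM with SGC-CBP30, then 1.08 and 1.27 RPKM with DMSO and 1.12 and 1.41 RPKM with CPI203. The SGC-CBP30 libraries stood apart from the other 6, which overlapped. The log2 change was 1.67 (SE 0.18, adjusted p = 0.000142) with SGC-CBP30 and 0.09 (95% interval -0.32 to 0.50, adjusted p = 0.684) with CPI203. PFKFB3, whose activity is mostly on the side of synthesis, measured 8.16 and 8.30 RPKM with DMSO and 14.3 and 15.1 RPKM with SGC-CBP30, then 6.72 and 6.61 RPKM with DMSO and 6.52 and 6.07 RPKM with CPI203. Here too only the SGC-CBP30 libraries were high. The log2 change was 0.83 (SE 0.07, adjusted p = 3.69e-05) with SGC-CBP30, and -0.08 (95% interval -0.24 to 0.08, adjusted p = 0.347) with CPI203. PFKFB2 lay between 2.29 and 3.0 RPKM in all 8 libraries and passed the test with neither compound. YOD1, which overlaps PFKFB2, averaged 5.84 RPKM and went from 5.11 and 5.34 to 7.99 and 7.86 RPKM with CPI203. Reads of these 2 genes may not be separable. PFKFB4 made up 20.8% and 21.3% of the summed PFKFB RPKM with SGC-CBP30 and 10.3% to 14.3% in the other 6 libraries.

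Upper glycolysis. The phosphofructokinase subunits did not rise with either compound by the test. PFKP, the platelet form and the most abundant, measured 104 and 107 RPKM with DMSO and 94.1 and 93.9 RPKM with SGC-CBP30, then 81.5 and 82.8 RPKM with DMSO and 50.5 and 53.8 RPKM with CPI203. It was lower than its DMSO pair with each compound, and the CPI203 libraries were the lowest of the 8. The log2 changes were -0.16 (SE 0.04, adjusted p = 0.00948) with SGC-CBP30 and -0.66 (SE 0.04, adjusted p = 5.09e-07) with CPI203. PFKM, the muscle form, fell by 0.21 and by 0.55 on the log2 scale, and PFKL, the liver form, measured 41.3 to 61.7 RPKM and passed with neither. ALDOC, the aldolase known from brain, measured 34.4 and 38.9 RPKM with DMSO and 55.7 and 55.5 RPKM with SGC-CBP30, then 36.7 and 37.0 RPKM with DMSO and 47.1 and 45.5 RPKM with CPI203. Both treated pairs lay above both DMSO pairs. Its log2 changes were 0.60 (SE 0.06, adjusted p = 6.04e-05) and 0.33 (SE 0.06, adjusted p = 0.000594), and without the first DMSO library of SGC-CBP30 the former was 0.51, under 1.5-fold. ALDOA, the abundant aldolase, passed with neither compound. GPI, which isomerizes glucose 6-phosphate, fell with both, and TPI1 rose by 0.31 with SGC-CBP30.

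**Figure D3:**
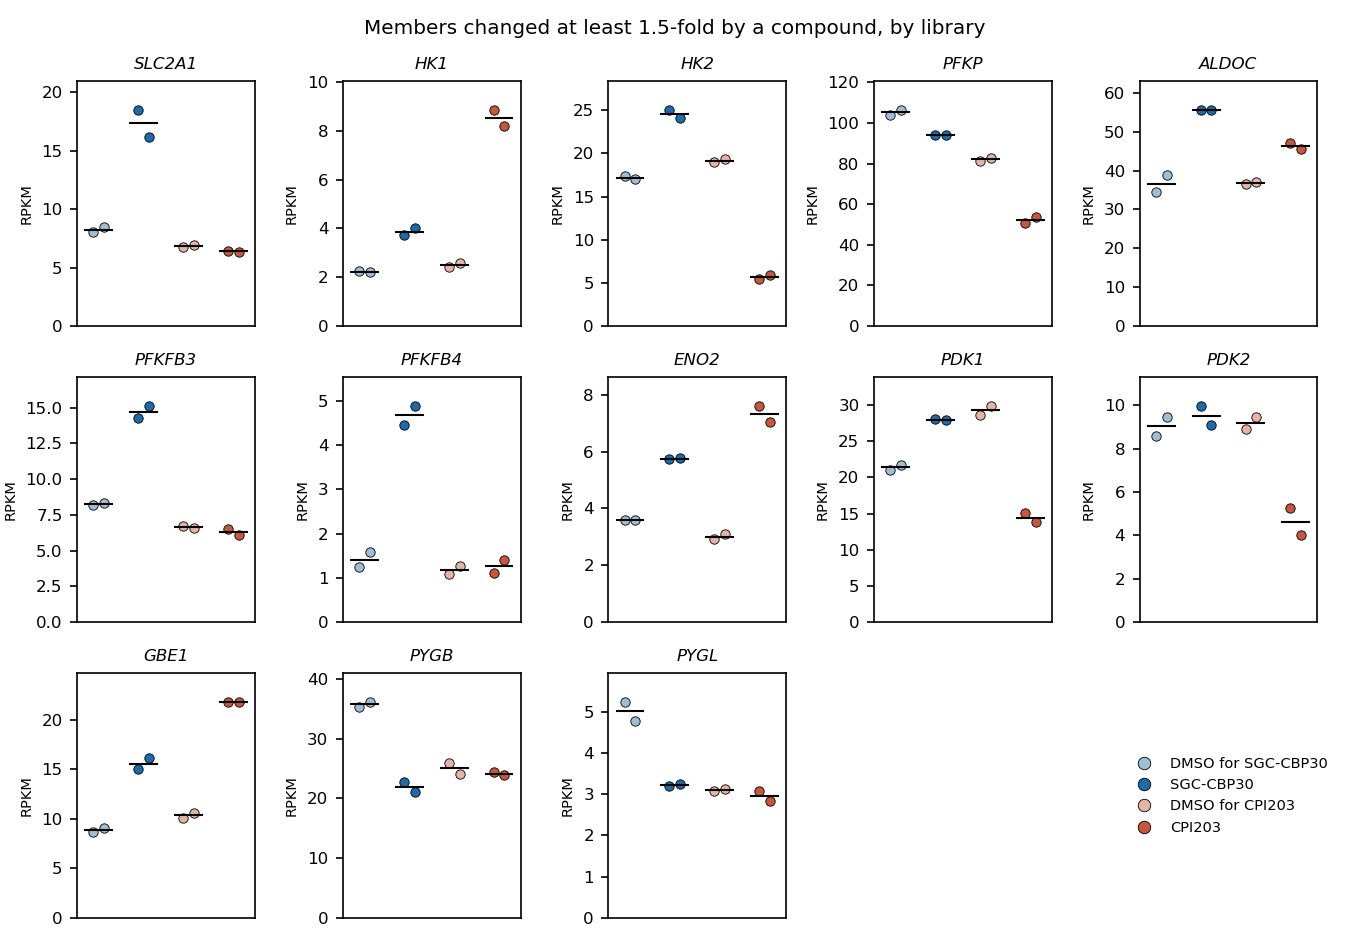
RPKM in each of the 8 libraries for the 13 members that changed at least 1.5-fold with a compound at an adjusted p under 0.05, with the group mean as a line and axes from 0. SLC2A1, PFKFB3 and PFKFB4 are high only in the SGC-CBP30 pair, and HK2, PDK1 and PDK2 are lowest in the CPI203 pair.

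Lower glycolysis. With SGC-CBP30 4 of the 6 members of the lower steps rose (PGK1, PGAM1, ENO2 and PKM), against 25.6% of all genes, and GAPDH and ENO1 did not pass. The rise of PKM was 0.09 on the log2 scale and did not pass with the libraries scaled to equal medians, or when any of the 4 libraries compared but the second DMSO library was left out. ENO2, the enolase known from neurons, measured 3.58 and 3.59 RPKM with DMSO and 5.73 and 5.77 RPKM with SGC-CBP30, then 2.91 and 3.09 RPKM with DMSO and 7.62 and 7.04 RPKM with CPI203. The 4 treated libraries lay above the 4 DMSO libraries, and the CPI203 libraries were highest. The log2 changes were 0.67 (SE 0.09, adjusted p = 0.000523) with SGC-CBP30 and 1.26 (SE 0.09, adjusted p = 1.65e-06) with CPI203. ENO2 made up at most 1.09% of the summed RPKM of ENO1 and ENO2. ENO1 was 783 and 810 RPKM with DMSO and 828 and 814 RPKM with SGC-CBP30, then 758 in both DMSO libraries and 691 and 686 RPKM with CPI203. It fell by 0.14 on the log2 scale with CPI203 and did not pass with SGC-CBP30 (0.04, 95% interval -0.01 to 0.10). PGK1, the first of the ATP-making steps, measured 354 and 370 RPKM with DMSO and 483 and 480 RPKM with SGC-CBP30, a log2 change of 0.41 (SE 0.03, adjusted p = 1.48e-05). With CPI203 PGK1 changed by -0.01 (adjusted p = 0.879). GAPDH and PKM, the pyruvate kinase, both rose by 0.21 with CPI203, and GAPDH did not pass with SGC-CBP30 (0.04, adjusted p = 0.201). Pseudogenes named after a gene can share its reads: their summed RPKM averaged 676 for GAPDH, 272 for LDHA, 197 for ENO1 and 154 for TPI1 over the libraries, so small changes of these genes are uncertain. The gene RP5-940J5.9, which overlaps GAPDH, averaged 366 RPKM.

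Lactate. LDHA, which favours lactate formation, measured 518 and 529 RPKM with DMSO and 616 and 630 RPKM with SGC-CBP30, then 574 and 602 RPKM with DMSO and 600 and 592 RPKM with CPI203. With SGC-CBP30 its log2 level rose by 0.25 (SE 0.03, adjusted p = 0.000239), while its level with CPI203 lay within the range of the DMSO pair. LDHB, which favours the reverse reaction, measured 307 and 311 RPKM with DMSO and 288 and 289 RPKM with SGC-CBP30, then 328 and 334 RPKM with DMSO and 294 and 280 RPKM with CPI203. It fell with both, by 0.10 and by 0.21 on the log2 scale. LDHA made up 62.8% to 64.4% of the summed RPKM of both in the 4 DMSO libraries, 68.1% and 68.6% with SGC-CBP30, and 67.1% and 67.9% with CPI203. SLC16A1, the lactate and pyruvate carrier MCT1, went from 34.7 and 33.2 to 43.6 and 43.9 RPKM with SGC-CBP30 and from 37.4 and 37.6 to 34.4 and 34.2 RPKM with CPI203.

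Entry of pyruvate into mitochondria. PDK1 (hg19, chromosome 2, 173420100 to 173489823), a kinase that switches pyruvate dehydrogenase off, measured 21.0 and 21.8 RPKM with DMSO and 28.0 and 27.9 RPKM with SGC-CBP30, then 28.7 and 29.9 RPKM with DMSO and 15.1 and 13.8 RPKM with CPI203. The log2 changes were 0.39 (SE 0.06, adjusted p = 0.000769) with SGC-CBP30 and -1.02 (SE 0.06, adjusted p = 3.23e-07) with CPI203. The SGC-CBP30 libraries were at about the level of the DMSO pair of CPI203, whose log2 level was 0.45 above that of the other DMSO pair (adjusted p = 0.000268). PDK2, a second such kinase, measured 8.57 and 9.48 RPKM with DMSO and 9.99 and 9.07 RPKM with SGC-CBP30, then 8.92 and 9.44 RPKM with DMSO and 5.25 and 4.03 RPKM with CPI203. It overlapped with its DMSO pair with SGC-CBP30 (log2 change 0.08, 95% interval -0.19 to 0.35) and was lower with CPI203 (log2 change -0.98, SE 0.12, adjusted p = 5.72e-05). PDK3 was 3.52 to 3.76 RPKM in the DMSO libraries and 4.89 and 4.73 RPKM with CPI203, an increase of 0.38 on the log2 scale. The summed RPKM of the 3 kinases went from 41.2 and 43.1 to 25.2 and 22.6 with CPI203. Of the subunits of the dehydrogenase itself, PDHB rose with both compounds by 0.11 and 0.36 and PDHA1 passed with neither.

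Glycogen. GBE1 (hg19, chromosome 3, 81538849 to 81811312), the branching enzyme of glycogen synthesis, measured 8.72 and 9.07 RPKM with DMSO and 15 and 16.1 RPKM with SGC-CBP30, then 10.1 and 10.6 RPKM with DMSO and 21.9 RPKM in both CPI203 libraries. All treated libraries were above all DMSO libraries. The log2 changes were 0.80 (SE 0.06, adjusted p = 2.05e-05) and 1.07 (SE 0.06, adjusted p = 4.46e-07). The synthase GYS1 rose by 0.42 with CPI203 and did not pass with SGC-CBP30. PGM1, which interconverts the glucose phosphates used to make glycogen, lay between 18.1 and 21.2 RPKM and passed with neither compound. ITGB3BP, which overlaps PGM1, averaged 34.3 RPKM and went from 32.8 and 31.1 to 37.4 and 41.0 RPKM with SGC-CBP30. PYGB (chromosome 20, 25228704 to 25278650), the brain form of the phosphorylase that breaks glycogen down, measured 35.2 and 36.2 RPKM with DMSO and 22.7 and 21.0 RPKM with SGC-CBP30, then 25.9 and 24.1 RPKM with DMSO and 24.4 and 23.9 RPKM with CPI203. PYGL, the liver form, measured 5.25 and 4.78 RPKM with DMSO and 3.19 and 3.24 RPKM with SGC-CBP30, then 3.08 and 3.12 RPKM with DMSO and 3.08 and 2.83 RPKM with CPI203. For both phosphorylases the DMSO pair of SGC-CBP30 was the only high pair. The log2 changes with SGC-CBP30 were -0.71 (SE 0.06, adjusted p = 2.13e-05) for PYGB and -0.62 (SE 0.11, adjusted p = 0.00166) for PYGL, the latter -0.56 and under 1.5-fold without the first DMSO library. ABHD12, which overlaps PYGB, went from 72.0 and 73.5 to 55.1 and 55.4 RPKM. Reads from overlapping genes may not be separable, and the strand setting is not given in the sources used here.

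Pentose phosphate pathway. TKT and TALDO1, which return pentoses to glycolysis, measured 167 and 176 RPKM and 135 RPKM (both libraries) with DMSO. With SGC-CBP30 TKT was at 145 and 137 RPKM and TALDO1 at 112 and 108 RPKM. Both fell by 0.29 on the log2 scale. With CPI203 TKT fell by 0.42, TALDO1 rose by 0.10, and PGD, an NADPH-making enzyme, rose by 0.30.

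The DMSO pairs differed for 21 of 35 members, against 41.7% of all genes tested, and at 1.5-fold or more for 1, against 7.84%. That 1 was PYGL, lower in the DMSO pair of CPI203 by 0.67 on the log2 scale (SE 0.11, adjusted p = 0.000955). PYGB was lower by 0.51, PFKL by 0.49, GPI by 0.41, PFKP by 0.36, TKT by 0.34, PFKFB3 by 0.30 and TALDO1 by 0.29. PDK1 was higher by 0.45. Of the 21, 14 were lower and 7 higher in the DMSO pair of CPI203. PFKL did not pass with SGC-CBP30, and PFKFB3 and PDK1 rose with it. Since the DMSO pair of SGC-CBP30 enters both comparisons, these values are given side by side and no relation between them is drawn. Using all 4 DMSO libraries as 1 control group fits no term for the experiment. A difference between the DMSO pairs then enters both the control mean and the spread. A call lost under this setting therefore does not show that a change is absent. With all 4 DMSO libraries as controls 0 members were lower with SGC-CBP30 at an adjusted p under 0.05 (limma, the only tool run). At an unadjusted p under 0.05 there were 3. Over all 14732 genes tested the adjusted calls also became fewer, from 2173 to 710 lower and from 3772 to 1409 higher. With all 4 DMSO libraries the log2 changes were -0.45 for PYGB (adjusted p = 0.108), -0.29 for PYGL, -0.16 for PFKM, -0.15 for LDHB and TALDO1 and -0.12 for TKT, so these 6 kept their sign, while GPI (0.031) and PFKP (0.016) did not. The increases were 11 with all 4 DMSO libraries, and those of SLC2A1, HK1, HK2, ALDOC, PFKFB3, PFKFB4, PGK1, ENO2 and GBE1 were among them, while those of LDHA, PDK1, PGAM1, PKM and PDHB were not. The DMSO pairs belong to libraries with separate naming series, and a difference in culture, preparation or sequencing between them cannot be told apart.

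**Figure D4:**
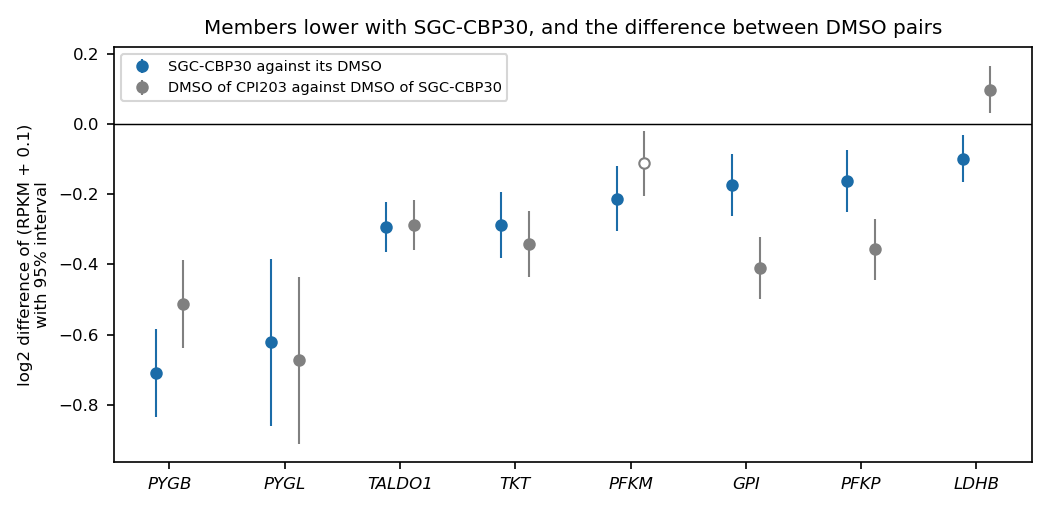
Log2 difference of (RPKM + 0.1) with its 95% interval for the 8 members lower with SGC-CBP30 (blue), beside the difference between the DMSO pairs, CPI203's minus SGC-CBP30's (grey). Filled points have an adjusted p under 0.05. The grey point of PFKM is open and that of LDHB lies above 0. The DMSO pair of SGC-CBP30 enters both differences, which favours equal signs, so no relation between them is drawn.

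Of 60 further genes of the same pathways 41 were tested. With SGC-CBP30 17 rose and 2 fell, against 25.6% and 14.8% of all genes, and 3 rose at least 1.5-fold, against 3.47%: BPGM (0.86), which makes 2,3-bisphosphoglycerate, PGM2L1 (0.77), which makes glucose 1,6-bisphosphate, and EPM2A (0.75), the glycogen phosphatase laforin. With CPI203 16 rose and 14 fell, against 31.1% and 33.1% of all genes, 8 and 6 of them at least 1.5-fold, against 13.4% and 14.4%. Increases were largest for the transporter SLC2A13 (1.76), PGM2L1 (1.48), H6PD (1.26) and PDP1 (1.06), the phosphatase that opposes the PDH kinases. Decreases were largest for RPIA (-1.32), an enzyme of ribose synthesis, and the monocarboxylate carrier SLC16A7 (-0.94).

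Regulators of the pathway were given for the same libraries. MYC measured 281 and 296 RPKM with DMSO and 217 and 193 RPKM with SGC-CBP30, then 247 and 240 RPKM with DMSO and 31.5 and 30.9 RPKM with CPI203. IRF4 measured 215 and 211 RPKM with DMSO and 86.2 and 79.5 RPKM with SGC-CBP30, then 228 RPKM in both DMSO libraries and 203 and 202 RPKM with CPI203. MYC was thus lowest with CPI203 and IRF4 with SGC-CBP30. TXNIP, a glucose-responsive inhibitor of glucose uptake, measured 11.7 and 13.4 RPKM with DMSO and 27.9 and 30.1 RPKM with SGC-CBP30, then 35.0 and 36.1 RPKM with DMSO and 123 and 122 RPKM with CPI203. It rose with each compound against its own pair, by 1.20 and 1.78 on the log2 scale, but its DMSO pairs differed by 1.5, and its level with SGC-CBP30 was below the DMSO pair of CPI203. With all 4 DMSO libraries as controls its change with SGC-CBP30 did not pass (0.46, adjusted p = 0.527). Its paralogue ARRDC4, which responds to glucose in the same way, rose by 1.08 and 0.57, but its DMSO pairs differed by 1.26 and its change with SGC-CBP30 did not pass with all 4 DMSO libraries (0.45, adjusted p = 0.466). HIF1A rose by 0.19 and 0.46, and EGLN1, the oxygen sensor that marks it for decay, by 0.86 and 0.80. The DMSO pairs of EGLN1 differed by 0.57, and with all 4 DMSO libraries its change with SGC-CBP30 was 0.58 and did not pass (adjusted p = 0.0805), nor did that of HIF1A (0.22, adjusted p = 0.0734).

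Of 20 hypoxia-responsive genes outside glycolysis 14 were tested. With SGC-CBP30 7 rose and 3 fell, against 25.6% and 14.8% of all genes, and at 1.5-fold BNIP3 (1.91), P4HA1 (0.90), EGLN1 (0.86) and KDM3A (0.83) rose while NDRG1 (-0.87), ANKRD37 (-0.65) and P4HA2 (-0.62) fell. With CPI203 7 rose and 4 fell, against 31.1% and 33.1% of all genes, with KDM3A (1.10), EGLN1 (0.80), BNIP3L (0.80) and INSIG2 (0.69) up and ANKRD37 (-2.53) down at 1.5-fold. Genes of this list moved in both directions with each compound. BNIP3, which acts in mitophagy, measured 9.17 and 9.82 RPKM with DMSO and 35.4 and 36.3 RPKM with SGC-CBP30, and its DMSO pair for CPI203 was at 17.2 and 16.6 RPKM. With all 4 DMSO libraries as controls its rise was 1.49 (adjusted p = 0.0124), and KDM3A (0.78, adjusted p = 0.00101) and ANKRD37 (-1.06, adjusted p = 0.0338) also passed. P4HA1 (0.53, adjusted p = 0.163), NDRG1 (-0.58, adjusted p = 0.0733) and P4HA2 (-0.21, adjusted p = 0.612) then did not pass with SGC-CBP30, as EGLN1 did not. The part of these regulators in the members' changes was not tested.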

How the data were processed

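RNA-seq of LP-1 cells gave 8 libraries. The study prepared total RNA and describes the assay as mRNA sequencing. The values deposited by the authors are RPKM. The submitters' processing notes name TopHat 1.4.1, Cufflinks and hg19, with no role or order, and the annotation release is not given in the sources used here. DMSO libraries were matched to compounds through the series of numbers in their names. The table's 24 further columns were not used.

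Genes with a missing value (27, no member) were left out, and the 14732 genes averaging 1 RPKM or more were converted to log2(RPKM + 0.1), so fold changes of low genes are understated. limma 3.58.1 in R 4.3.3 was fitted to the 4 group means over 8 libraries (lmFit, contrasts, eBayes with an intensity trend), with Benjamini-Hochberg adjustment over all genes tested. Calls needed an adjusted p under 0.05, and a second call also 1.5-fold. An exact permutation test of 2 against 2 libraries cannot give a two-sided p under 0.333, so none was used. Depth was estimated from the steps of low RPKM values of single-exon genes: 60.3% to 72.7% of these were whole reads within 0.1, too few for a count test. A total of 3 further identifiers bearing member symbols (TPI1, ENO2, PGK1) were at 0 in all libraries. Promoter windows came from RefSeq (GRCh38.p14), and gene positions are those deposited (hg19). Figures used Python 3.11.15 and matplotlib 3.10.9.

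Members and lists were chosen with earlier results of these data known. Every member is accounted for. Those changed 1.5-fold have all 8 values, isoenzyme families and the 4 most abundant members have values, and companion genes are named where called at 1.5-fold, regulators in any case. Alternatives were another pseudocount (1), a minimum of 5 RPKM or none, quantile normalization, median scaling, use of all 4 DMSO libraries as controls, a replicate block, no intensity trend, separate fits, and leaving out each library.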

Additional observations from a re-analysis of the deposited data

Results flagged for a closer look

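The responses of 9 members differed between the compounds by at least 1.5-fold, by the test of the difference itself (limma, adjusted p under 0.05, change with SGC-CBP30 minus change with CPI203 on the log2 scale). This is 25.7% of the 35 members tested, near the 24.5% of all genes. The difference was positive for HK2 (2.26), PFKFB4 (1.58), PDK1 (1.4), SLC2A1 (1.16), PDK2 (1.06) and PFKFB3 (0.91). It was negative for HK1 (-0.96), PYGB (-0.66) and ENO2 (-0.59). HK2 and PDK1 moved in opposite directions, HK1 and ENO2 rose with both compounds and more with CPI203, and SLC2A1, PFKFB3, PFKFB4 and PYGB passed the test with SGC-CBP30 alone. ENO2 was under 1.5-fold without the first DMSO library of CPI203 or without the first CPI203 library, where the value nearest 0 was -0.54. For PYGB the DMSO pairs differed by -0.51 as well. The doses differ between the compounds and each has its own DMSO pair, so compound, dose and experiment cannot be told apart in these differences.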

How the results depend on the processing

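With all 4 DMSO libraries as controls the number of members lower with SGC-CBP30 went from 8 to 0 and higher with CPI203 from 11 to 7, and GPI (0.031) and PFKP (0.016) with SGC-CBP30 and TALDO1 (-0.045) with CPI203 changed sign. Requiring 1.5-fold as well left 7 higher and 2 lower with SGC-CBP30, 3 and 4 with CPI203, 9 with a differing response and 1 between the DMSO pairs. Leaving out 1 library gave 14 to 16 higher and 5 to 8 lower with SGC-CBP30, 10 to 12 and 9 to 11 with CPI203, 24 to 26 differing responses and 15 to 20 between the DMSO pairs. The study describes its DMSO controls as paired with the treated samples, while the labels give shared replicate numbers without saying what they pair. Deviations of same-numbered libraries correlated across 8298 genes at -0.172 (SGC-CBP30) and -0.0395 (CPI203). With the replicate block the DMSO pairs differed for 13 members instead of 21, and the other counts were 14 and 7, 10 and 9, and 25. Over all genes, calls higher with SGC-CBP30 went from 3772 to 2440 with median scaling, 1409 with all 4 DMSO libraries and 2210 without its second library, and calls lower from 2173 to 710 and 1401 in the last 2 of these. The DMSO pairs differed at 6150 genes, and at 3593 with the replicate block. The 1.5-fold rule left 511 and 559 genes with SGC-CBP30, 1969 and 2126 with CPI203, 3609 differing responses and 1155 between the DMSO pairs. Of 2216 recomputed member fold changes 2009 kept direction and side of the threshold, 139 lost the call, 20 gained it, 3 were reversed and 45 changed sign without a call in either. PYGB and PYGL lost the SGC-CBP30 call with all 4 DMSO libraries. PYGL, ALDOC and ENO2 lost the 1.5-fold call with SGC-CBP30 in 3, 2 and 2 settings. The causes were not tested.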
